A study of Rattus norvegicus with 9 samples.

Results

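Myelin is the lipid-rich membrane that oligodendrocytes wrap around axons, and its genes are read here from bulk frontal cortex of rats that differed in behaviour. The 9 genes described are Mbp, Mobp, Mag, Mog, Cnp, Mal, Cldn11, Gsn and Ugt8. They are 9 of 10412 gene symbols on the array. Every probe set whose only annotated symbol is one of these names was taken, which gave 15 of the 15923 probe sets in the table. All samples form 1 group of 9 male Lewis rats, an inbred strain, weighing 200 to 250 g. No treatment was given. The tissue is labelled prefrontal cortex, was dissected without the olfactory bulb and was collected 12 days after behavioural testing ended, with 1 Affymetrix array for each rat. Each rat carries 4 label values without units, namely startle, locomotion, sugar feeding and plus maze. The title of the study asks how mRNA levels in the brain relate to behaviour among inbred rats, so each gene is set against the other genes and against these values across rats.

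In compact myelin, Mbp (myelin basic protein) holds the cytoplasmic faces of the membrane together and Mobp is a small basic protein of the same compartment. Mag and Mog are immunoglobulin-type surface proteins, the first facing the axon and the second on the outermost layer of the sheath. Cnp is an enzyme of the uncompacted cytoplasmic channels, Mal a proteolipid that sorts membrane to the sheath and Cldn11 the claudin of the tight junctions between its layers. Ugt8 makes galactosylceramide, the main glycolipid of myelin, and Gsn (gelsolin) severs actin filaments and is also made by other cell types. Cortical grey matter holds less myelin than the white matter beneath it. In bulk tissue, fewer cells of a type and less RNA per cell cannot be told apart.

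Promoter sequence is shown for Mobp, Cnp and Mag, 3 of the 4 genes whose window holds the motif ACAAAG, a core recognised by SOX factors such as the oligodendrocyte regulator Sox10. The sequences are the 250 bases before the annotated start, from RefSeq on build GRCr8, 5′ to 3′ on the strand of the gene, with matches to ACAAAG or its reverse complement CTTTGT in capitals. Mobp lies on the plus strand at chr8:128746982-128747231, Cnp on the plus strand at chr10:86011254-86011503 and Mag on the minus strand at chr1:95291045-95291294.
Mobp: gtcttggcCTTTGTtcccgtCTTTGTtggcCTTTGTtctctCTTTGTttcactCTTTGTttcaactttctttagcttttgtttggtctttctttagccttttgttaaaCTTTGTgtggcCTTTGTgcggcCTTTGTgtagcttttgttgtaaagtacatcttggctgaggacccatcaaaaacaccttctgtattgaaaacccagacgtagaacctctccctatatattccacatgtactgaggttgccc
Cnp: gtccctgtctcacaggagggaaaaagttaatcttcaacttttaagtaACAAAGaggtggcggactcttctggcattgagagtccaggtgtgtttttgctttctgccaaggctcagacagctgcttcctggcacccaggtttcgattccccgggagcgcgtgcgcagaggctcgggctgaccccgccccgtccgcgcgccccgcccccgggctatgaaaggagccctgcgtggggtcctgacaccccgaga
Mag: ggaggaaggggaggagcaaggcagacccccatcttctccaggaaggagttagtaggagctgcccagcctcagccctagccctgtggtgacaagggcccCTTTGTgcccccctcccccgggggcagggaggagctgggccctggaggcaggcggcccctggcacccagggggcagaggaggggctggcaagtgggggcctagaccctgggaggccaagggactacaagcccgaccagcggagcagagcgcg

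The Mobp window held 8 matches in a stretch of similar T-rich repeats, a count reached by 0.00598% of the 33469 windows of the reference. The Cnp and Mag windows held 1 match each, as did 1 window of Mbp, the fourth gene, whose sequence is not shown. A match was present in 16.3% of all windows and in 4 of the 9 windows found for 8 of the 9 genes. The E-box CANNTG, searched on both strands, was in 6 of these 9 windows and in 65.5% of all windows. The TATA box TATAAA, searched on both strands, was in 0 of the 9 and in 12.9% of all. These matches are descriptions of sequence and no binding was measured.

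Levels are the deposited log2 expression values, and a level of one probe set is not comparable with that of another. A probe set was tested when its mean over the 9 rats was at least 3.22, which left out the lowest 40% and kept 9520. Of the myelin probe sets 12 were kept, covering 8 genes, and the filter does not depend on behaviour. Both Ugt8 probe sets and the second Cldn11 probe set (1369609_at) were left out. Array medians ran from 4.11 to 4.28. Other cell types of cortex were present in the data. Of 11 listed neuronal markers 10 were found on the array and all 10 were kept, as were 9 of 9 listed astrocyte markers.

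Myelin genes varied more from rat to rat than most probe sets. The median SD of the 12 kept probe sets was 0.347 log2 units, against 0.190 over all 9520. Mbp (1368810_a_at) ran from 12.00 in rat 6 through a median of 12.45 to 12.69 in rat 8. Its second probe set, 1387341_a_at, spanned 3.49-fold, from 9.97 in rat 6 through a median of 10.57 to 11.77 in rat 8. Rat 6 was thus lowest and rat 8 highest by both probe sets of this gene.

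Mobp (1370434_a_at) was lowest in rat 6 at 9.87, had a median of 10.53 and reached 10.76 in rat 4. For Mog (1398257_at) the values were 5.73 in rat 6, a median of 6.36 and 7.06 in rat 8, a span of 2.52-fold. Mal (1387040_at) had 7.58 in rat 6, a median of 8.16 and 8.76 in rat 2. Rat 6 was therefore the lowest animal for Mbp, Mobp, Mog and Mal by the probe set of highest mean of each gene.

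Mag (1368861_a_at) varied less, from 7.46 in rat 7 through a median of 7.54 to 8.10 in rat 8, a span of 1.57-fold. Cnp (1387897_at) had its lowest level, 8.96, in rat 7, a median of 9.35 and its highest level, 9.70, in rat 3. Its second probe set (1370693_a_at) had the same lowest and highest rats, at 7.49 and 8.90, with a median of 8.20. Cldn11 (1376711_at) was lowest in rat 9 at 8.86, had a median of 9.38 and was highest in rat 4 at 9.91. Gsn (1371414_at) was lowest in rat 3 at 6.54, had a median of 7.01 and was highest in rat 8 at 7.38. Mag, Cnp, Cldn11 and Gsn thus had other lowest animals than Mbp, Mobp, Mog and Mal by the probe set of highest mean of each gene. Mobp probe set 1368263_a_at was lowest in rat 1.

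Ugt8 gave little signal. Probe set 1368858_at ran from 2.55 in rat 9 through a median of 2.81 to 3.46 in rat 2, and 1368857_at from 2.76 in rat 9 through 2.90 to 3.10 in rat 3. These probe sets correlated with each other at r = 0.05 (exact permutation p = 0.892) and a Spearman's rho of 0.35 (exact p = 0.359), so no shared rat-to-rat pattern of Ugt8 was detectable.

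**Figure D1:**
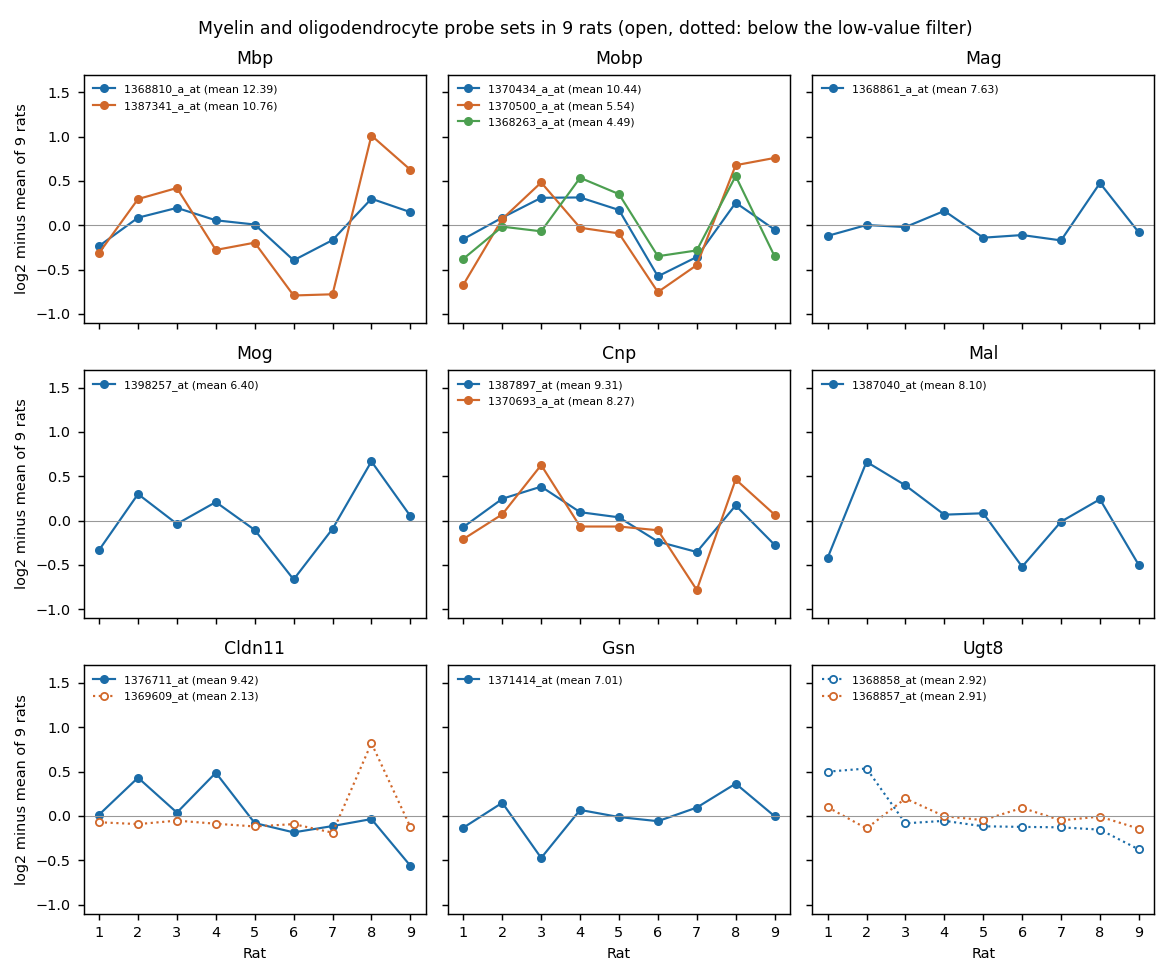
Log2 expression of the 15 probe sets in each of the 9 rats, as the difference from the mean of that probe set, with 1 panel for each gene and 1 line for each probe set. Open symbols and dotted lines mark the 3 probe sets below the low-value filter. Rat 6 is low and rat 8 high for Mbp and Mog, while Gsn is lowest in rat 3.

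Rats 8 and 9 have arrays that differ from the rest over many genes, and some myelin probe sets moved with them. In Mbp probe set 1387341_a_at, rats 8 and 9 had 11.77 and 11.39, against a range of 9.97 to 11.18 in rats 1 to 7. In Mobp probe set 1370500_a_at they had 6.22 and 6.30, against 4.79 to 6.03 in rats 1 to 7. Both arrays thus lay above all others in 2 of the 12 tested probe sets, as they did in 9.33% of all tested probe sets. Both lay below all others in 0 of the 12, compared with 17.6% of all. This pair was singled out from the data, so no test is given.

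The other probe sets of these genes did not separate the pair. Rats 8 and 9 averaged 12.62 for Mbp by 1368810_a_at, against 12.33 in rats 1 to 7, a difference of 0.29, where 1387341_a_at gave 1.05. For Mobp the difference was 0.13 by 1370434_a_at and 0.13 by 1368263_a_at, where 1370500_a_at gave 0.92. The Mobp probe sets 1370434_a_at and 1370500_a_at correlated at r = 0.690 (exact permutation p = 0.0423) and a Spearman's rho of 0.583 (exact p = 0.108) over 9 rats, and at r = 0.864 without rats 8 and 9. Rats 1 to 7 are called the 7 rats below, where values for them are set beside those for all 9.

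Levels of most myelin genes varied together across rats. With 1 probe set for each gene, the one with the highest mean, the 28 pairs among the 8 kept genes had a median r of 0.568, from -0.187 for Cnp with Gsn to 0.872 for Mbp with Mog. Over all pairs of tested probe sets the median r was 0.0440. An r of at least 0.7 was reached by 6 of the 28 pairs and by 5.93% of all pairs. Leaving out 1 rat, the number at 0.7 ran from 5 of 28 without rat 6 or rat 8 to 11 of 28 without rat 3. It was 10 of 28 without rat 9. The share over all pairs was not computed for these subsets, so the counts are given without a background. Without rats 8 and 9 the median r was 0.605 for the 28 pairs, and 10 of them reached 0.7, while all pairs had a median of 0.0160 and 6.95% at 0.7. The probe sets of a pair share arrays and normalization, and pairs that share a gene are not independent.

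Mbp and Mog, proteins of compact myelin and of the outermost layer, correlated at r = 0.872 (exact permutation p = 0.00194) and a Spearman's rho of 0.833 (exact p = 0.00827). In the 7 rats this r was 0.837, and it was 0.661 when the 2 rats most distant from the Mbp median were dropped. Mbp and Mobp had r = 0.858 (exact permutation p = 0.00339) and a Spearman's rho of 0.70 (exact p = 0.0433), with r = 0.928 in the 7 rats and 0.698 without the 2 farthest. After adjustment over all 9519 relations of Mbp, the exact permutation p was 0.638 for both pairs, so neither passed 0.05.

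Cnp and Mobp had r = 0.804 (exact permutation p = 0.00953) and a Spearman's rho of 0.75 (exact p = 0.0255), with r = 0.847 in the 7 rats and 0.707 when the 2 rats most distant from the Mobp median were dropped. Cnp and Mal had r = 0.793 (exact permutation p = 0.0127) and a Spearman's rho of 0.85 (exact p = 0.00607), with r = 0.737 in the 7 rats and 0.950 when the 2 most distant from the Cnp median were dropped. For Mag and Mog, r was 0.792 (exact permutation p = 0.00903) and a Spearman's rho of 0.80 (exact p = 0.0138), with r = 0.617 in the 7 rats and 0.526 when the 2 most distant from the Mag median were dropped. Mobp and Mog had r = 0.733 (exact permutation p = 0.0236) and a Spearman's rho of 0.633 (exact p = 0.0760), with r = 0.759 in the 7 rats and 0.511 when the 2 most distant from the Mobp median were dropped. Their exact permutation p adjusted over the 9519 relations of the gene whose median set the subset was 1.00, 0.981, 0.592 and 1.00 in the order of the pairs given. All 36 pairs of the 9 genes were computed.

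The r of gelsolin with the group depended on rat 3, in which Gsn was lowest. With the other genes it ran from -0.187 with Cnp to 0.572 with Mog, and in the 7 rats from -0.442 with Cnp to 0.327 with Cldn11. Cldn11 correlated at 0.664 with Mal and 0.117 with Mbp over 9 rats, and at 0.592 and 0.594 with these genes without rats 8 and 9. Ugt8, below the filter, had r from -0.224 with Mbp to 0.609 with Cldn11.

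**Figure D2:**
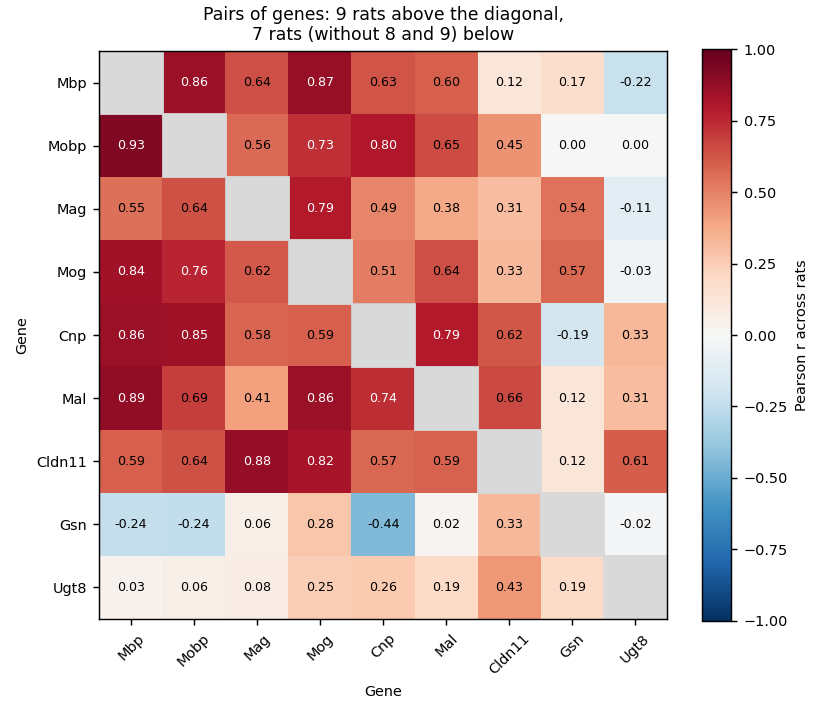
Pearson r for each pair of the 9 genes, with 1 probe set for each gene. Cells above the diagonal use 9 rats and cells below it the 7 rats without 8 and 9. The block from Mbp to Mal is positive throughout, up to 0.872 over 9 rats, and the Gsn values run from -0.187 with Cnp to 0.572 with Mog over 9 rats.

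Each gene was also set against the mean z score of the other kept genes. Mog followed that mean most closely, with r = 0.879, a value reached by 0.0315% of all tested probe sets, Mog itself and the other probe sets of these genes included. Mobp had 0.788, Mbp 0.751, Mal 0.743, Mag 0.714 and Cnp 0.70, and at most 0.557% of tested probe sets were as high. In the 7 rats these 5 values ran from 0.694 for Mag to 0.843 for Mbp, and Mog had 0.923. Cldn11 had 0.480 over 9 rats and 0.844 in the 7 rats. Gsn had r = 0.237, a level that 22.3% of tested probe sets reached, and a Spearman's rho of 0.517. Single rats decided this value, since r was 0.758 without rat 3 and -0.065 without rat 8, and it was -0.0381 in the 7 rats. The mean was highest in rat 8 at 1.12, followed by rat 2 at 0.759, and lowest in rat 6 at -1.12.

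Genes outside the 9 that resembled this mean included other oligodendrocyte genes. Among 6793 genes, 0.604% reached r = 0.7 with the mean of the 8 kept genes, those genes included. The highest outside the group was Apc, a regulator of Wnt signalling, at r = 0.870. Ppp1r1b (DARPP-32, a phosphatase inhibitor of neurons that receive dopamine) had 0.862, and Ndrg1, made by oligodendrocytes and Schwann cells, 0.842. Apod, a lipocalin of glia, had 0.823 and Phyh, a peroxisomal enzyme of phytanic acid breakdown, 0.821. Ppp2r1a, a scaffold subunit of protein phosphatase 2A, had 0.821, Cdc42ep2, an effector of Cdc42, 0.811, Ngef, a guanine nucleotide exchange factor, 0.811, the claudin Cldn12 0.797 and Mllt6 0.781. In the 7 rats these 10 values ran from 0.711 for Cdc42ep2 to 0.966 for Apod. The most opposite were B4galt5, a galactosyltransferase, at -0.859, Zdhhc2, a palmitoyltransferase, at -0.815, Olr59, an olfactory receptor, at -0.791, Syvn1, a ubiquitin ligase of the endoplasmic reticulum, at -0.782 and Spry2, an inhibitor of growth factor signalling, at -0.778. These 5 values ran from -0.802 for Spry2 to -0.627 for Syvn1 in the 7 rats. All 15 genes were picked for their r, which is a description.

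Of 46 symbols on a list of other myelin and oligodendrocyte genes, 28 were found on the array, and 21 genes were kept by the filter. Their median r with the mean of the 8 genes was 0.524, 19 of 21 were above 0, as were 46.2% of all genes, and 6 of 21 reached 0.7. Ndrg1 and Apod were followed by Tspan2, a tetraspanin, at 0.773 and Septin4, a filament protein, at 0.765. Cd9, another tetraspanin, had 0.741 and Pmp22, better known from peripheral myelin, 0.716. The lowest were Enpp2 (autotaxin) at -0.219 and Plekhb1 at -0.115. Without rats 8 and 9 the median was 0.537 and 3 of 21 reached 0.7, where 1.65% of all genes did. Sox10, named after its value was seen, had 0.567 over 9 rats and 0.0640 in the 7 rats.

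Markers of the precursor stage and lipid enzymes were set against the same mean. The 5 kept precursor genes had a median r of 0.174, with Bcan, a matrix proteoglycan, highest at 0.506. Their median was 0.183 in the 7 rats. The 18 kept genes of a list of lipid enzymes and their control, mostly of synthesis, had a median of 0.271 and 0 of 18 reached 0.7. The median was 0.400 in the 7 rats and 1 of 18 did, namely the fatty acid elongase Elovl6 at 0.800. Fdft1 (squalene synthase) had 0.628 and Sc5d, another cholesterol enzyme, 0.425, whereas Dhcr7, of the last step of cholesterol synthesis, had -0.652 and Fasn (fatty acid synthase) -0.585. Differences between lists were not tested.

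Markers of other cell types are given beside these values. Median r with the mean of the myelin genes was 0.0584 for 9 astrocyte genes, 0.142 for 6 microglial genes, 0.0383 for 6 endothelial genes, -0.0275 for 10 neuronal genes and 0.224 for 5 meningeal and fibroblast genes, and 0 of these genes reached 0.7. The medians in the 7 rats were 0.0590, 0.144, -0.0390, -0.119 and 0.145 in the same order of cell types. The summed linear level of the neuronal genes ran from 23926 in rat 3 through a median of 27432 to 31720 in rat 7. That of the astrocyte genes ran from 25327 in rat 9 through 27449 to 32689 in rat 3. Such sums are led by the probe sets of highest value. Among the neuronal genes, Snap25 had a mean log2 level of 13.34 and Gad2 4.13. Of 3 Schwann cell markers 2 were found on the array, and only Egr2, also a neuronal activity gene, was kept, at -0.197. Of 5 striatal markers, Ppp1r1b and Penk (an opioid peptide precursor) were kept, at 0.862 and 0.296, while Drd1, Drd2 and Adora2a, the defining receptors, lay below the filter. The summed linear level of Ppp1r1b and Penk ran from 592 in rat 9 through 732 to 842 in rat 3. The part of these cell types in the myelin values was not tested.

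**Figure D3:**
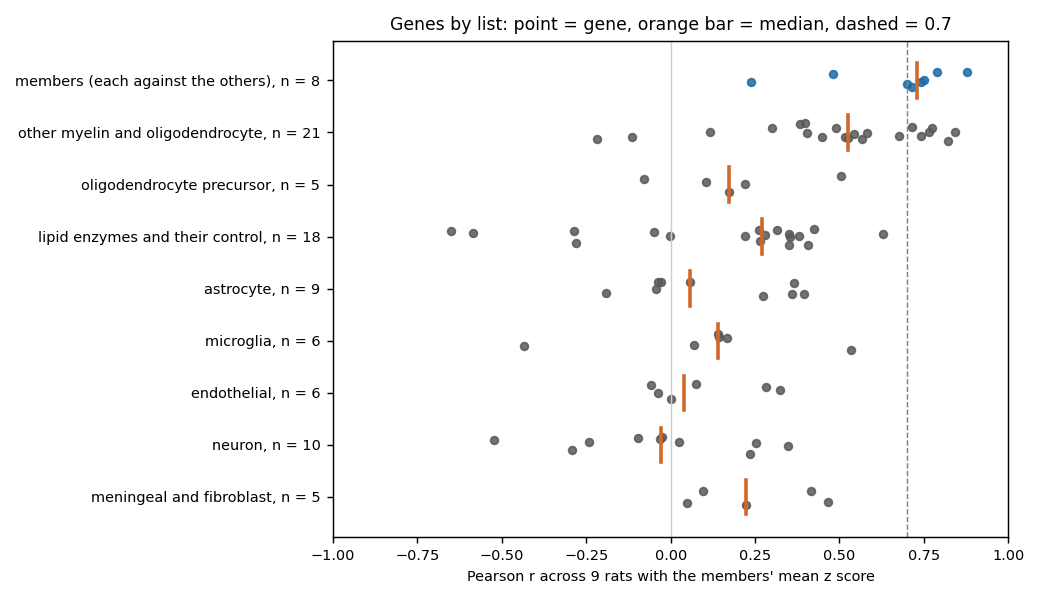
Pearson r over 9 rats between each kept gene (point) and the mean z score of the myelin genes, by gene list, with the median of each list as an orange bar and r = 0.7 as a dashed line. The 8 genes themselves are each set against the mean of the other 7. Other myelin and oligodendrocyte genes have a median of 0.524, and the median is 0.0584 for astrocyte and -0.0275 for neuronal genes.

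No myelin probe set passed the threshold for any of the 4 behaviours. In limma, 0 of the 12 passed an adjusted p of 0.05 for each behaviour, against 0.0% of the 9520 probe sets tested. The number with an unadjusted p under 0.05 was 3 of 12 for sugar feeding, 1 of 12 for startle, 0 of 12 for locomotion and 0 of 12 for plus maze. Over all tested probe sets these shares were 1.4% for sugar feeding, 13.2% for startle, 1.96% for locomotion and 2.99% for plus maze. Slopes are given in log2 units per SD of the behaviour.

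Sugar feeding was the behaviour for which the slopes of the myelin probe sets all had 1 sign. All 12 were positive, with a median of 0.15, where 46.8% of all tested probe sets had a positive slope and the median was -0.0030. These 12 slopes rest on the same 9 rats and on probe sets that move together. All 12 also stayed positive without rats 8 and 9, where 52.0% of all did, but 8 of 12 were positive without rats 4 and 8, which ate the most by this measure, where 39.1% of all were. Without rat 6 alone 11 of 12 were positive, where 53.9% of all were. The count at an unadjusted p under 0.05, 3 of 12 over 9 rats, was 0 of 12 without rats 4 and 8, against 1.57% of all. It was 1 of 12 with the other 3 behaviours as covariates, against 1.73%. This count was 0 of 12 without rat 7 (1.09% of all), 1 of 12 without rat 6 (1.28% of all) and 1 of 12 without rat 8 (1.76% of all). Sugar feeding ran from 0.8 in rat 6, through a median of 1.8, to 4.7 in rat 4. Rat 6 was thus lowest both for sugar feeding and, by the probe set of highest mean, for Mbp, Mobp, Mog and Mal. By the same probe sets rat 4 was highest for Mobp, above the median for Mog and at the median for Mbp and Mal.

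Mobp probe set 1368263_a_at ran from 4.12 in rat 1 through a median of 4.43 to 5.05 in rat 8, with rat 4 at 5.03. Its slope on sugar feeding was 0.25 ± 0.10 (SE, n = 9), with a limma adjusted p of 1.00. It had r = 0.656 (exact permutation p = 0.0469) and a Spearman's rho of 0.317 (exact p = 0.410), with r = 0.631 in the 7 rats and -0.178 without the 2 farthest rats, so the relation rests on rats 4 and 8. The Mobp probe set of highest level, 1370434_a_at, had a slope of 0.20 ± 0.085 (SE, n = 9; limma adjusted p = 1.00). Its r was 0.625 (exact permutation p = 0.0666) and a Spearman's rho of 0.667 (exact p = 0.0589), with 0.581 in the 7 rats and 0.486 without rats 4 and 8. Its slope was 0.13 without rat 6.

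Mag had a slope on sugar feeding of 0.14 ± 0.056 (SE, n = 9; limma adjusted p = 1.00), r = 0.688 (exact permutation p = 0.0590) and a Spearman's rho of 0.667 (exact p = 0.0589). Its r was 0.829 in the 7 rats and 0.272 without rats 4 and 8, and its slope was 0.25 without rat 4 and 0.088 without rat 8. For Mog the slope was 0.23 ± 0.10 (SE, n = 9; limma adjusted p = 1.00), with r = 0.595 (exact permutation p = 0.0996), rho = 0.583 (exact p = 0.108), 0.515 in the 7 rats and 0.414 without rats 4 and 8. That slope was 0.45 without rat 4 and 0.15 without rat 6. Of the 21 other myelin and oligodendrocyte genes, 16 had a positive slope on sugar feeding, against 46.8% of all tested probe sets. Of these 21 genes 0 passed in limma. Only Ndrg1 among them had an unadjusted limma p under 0.05, against 1.4% of all, with a slope of 0.32. Median slopes on sugar feeding were -0.017 for astrocyte, -0.050 for microglial, -0.035 for endothelial and 0.0092 for neuronal markers. The median was 0.090 for the 21 genes, 0.080 for the 5 precursor genes and 0.084 for the 2 striatal genes. Lipid genes had 0.014, meningeal and fibroblast genes -0.023 and Egr2 -0.10. Of the striatal genes, Ppp1r1b had 0.18 and Penk -0.0092. Ppp1r1b and the precursor gene Vcan had an unadjusted limma p under 0.05. That of Ppp1r1b was below those of all 12 myelin probe sets. Of the genes on these lists 0 passed in limma.

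**Figure D4:**
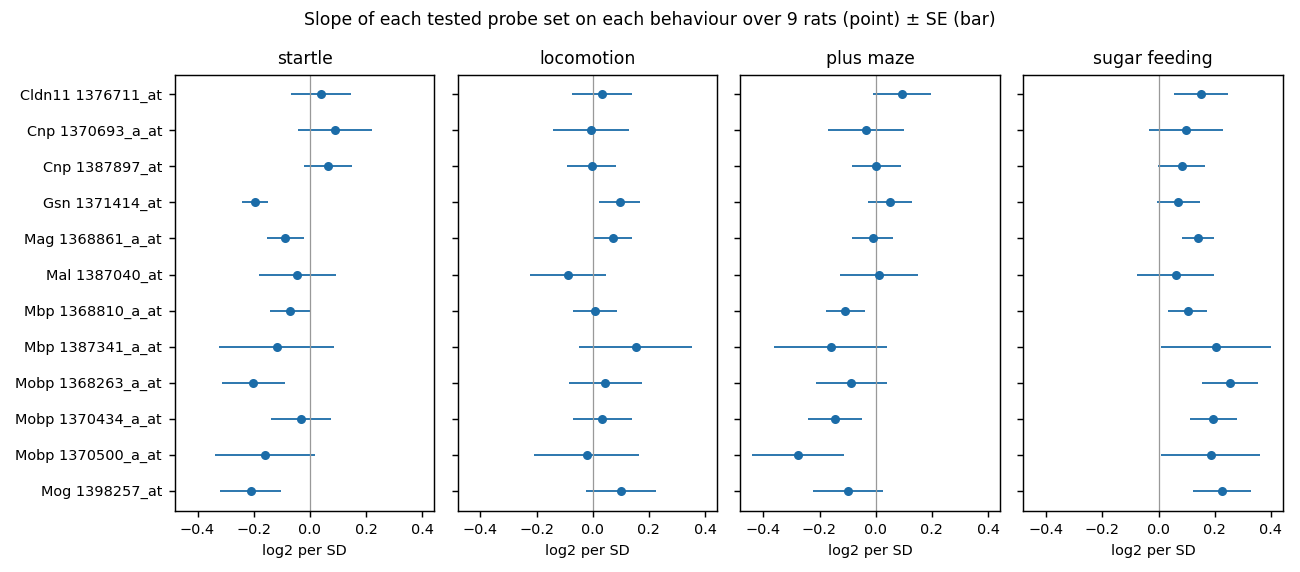
Slope in log2 units per SD of each behaviour for the 12 kept probe sets over 9 rats, with 1 panel for each behaviour and bars showing the SE. All 12 sugar feeding slopes lie above 0, and none passes an adjusted p of 0.05. Gsn has a startle slope of -0.19 with a short error bar.

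For startle the leading gene was gelsolin, whose r with the mean of the other myelin genes was 0.237, and 0.758 without rat 3. Gsn had a slope of -0.19 ± 0.046 (SE, n = 9; limma adjusted p = 0.359). The correlation was r = -0.852 (exact permutation p = 0.00197) and a Spearman's rho of -0.767 (exact p = 0.0214). The r was -0.785 in the 7 rats and -0.677 (exact permutation p = 0.0921) when rats 1 and 3, most distant from the startle median, were dropped. The count at an unadjusted p under 0.05 was 0 of 12 without those rats, against 7.28% of all, 2 of 15 with no filter on low values, against 15.5%, and 3 of 12 without rat 3, against 9.35%. Rat 8 had the lowest startle, 67.7, and the highest Gsn, and rat 3 the highest startle, 501, and the lowest Gsn.

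The myelin probe sets had a median startle slope of -0.079, against 0.021 over all tested. Of the 12, 9 were negative, as were 38.5% of all. Mog had -0.21 ± 0.11 (SE, n = 9; limma adjusted p = 0.407) and Mobp probe set 1368263_a_at -0.20 ± 0.11 (SE, n = 9; limma adjusted p = 0.443). The r of Mog was -0.556 (exact permutation p = 0.118), with a rho of -0.40 (exact p = 0.291), and -0.280 in the 7 rats. It was -0.639 without rats 1 and 3. Without rat 8 the slopes were -0.11 for Mog and -0.12 for Mobp probe set 1368263_a_at. This direction depended on 1 animal, since 7 of 12 slopes were positive without rat 8, with a median of 0.011, where 55.9% of all were positive. Of the 12, 7 were also positive in the 7 rats, as were 53.3% of all. Startle slopes of markers of other cell types are given beside these values, where 61.5% of all tested probe sets had a positive slope. The median slope was -0.096 for neuronal markers, of which 2 of 10 were positive, and 0.086 for astrocyte markers, of which 7 of 9 were. All 6 microglial and all 6 endothelial markers had positive slopes, and 0 markers passed in limma. At an unadjusted limma p under 0.05 were 3 neuronal, 2 astrocyte, 0 microglial and 0 endothelial markers, against 13.2% of all. Their part in the myelin slopes was not tested. Among the 18 genes of the lipid list 5 had an unadjusted p under 0.05 for startle, against 13.2% of all tested probe sets, and 0 passed in limma. These were Sqle at -0.19, Cyp51 at -0.18 and Insig1 at -0.23, all of cholesterol synthesis and its control. The others break lipids down, Arsa, a lysosomal sulfatase, at -0.16 and Galc, which cleaves galactosylceramide, at 0.35. Plekhb1, at -0.13, was the only one of the 21 other myelin and oligodendrocyte genes with an unadjusted p under 0.05 for startle.

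For locomotion the direction of the slopes depended on which rats and which covariates were used. Over 9 rats the median slope of the 12 probe sets was 0.034, and 8 were positive, as were 41.0% of all. In the 7 rats the median was -0.022 and 4 of 12 were positive, where 47.3% of all were. With the other 3 behaviours as covariates the median was -0.059 and 2 of 12 were positive, where 38.4% of all were. Without rats 1 and 3, which had the highest and the lowest locomotion, 1102 and 536, all 12 slopes were positive, where 38.9% of all were, and the median was 0.36. In this subset 8 of 12 had an unadjusted limma p under 0.05, against 13.2% of all, and the lowest adjusted p in limma among the 12 was 0.364. Mbp (1368810_a_at) had r = 0.0387 (exact permutation p = 0.922) and a Spearman's rho of 0.117 (exact p = 0.776) over 9 rats and r = 0.909 (exact permutation p = 0.00456) without these rats. In the 7 rats without 8 and 9 its r was -0.245. Without rat 1 alone all 12 slopes were positive, where 38.5% of all were. In that subset 3 of 12 had an unadjusted p under 0.05, against 9.84% of all.

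For the plus maze, the most negative slope was that of Mobp probe set 1370500_a_at, -0.28 ± 0.16 (SE, n = 9; limma adjusted p = 0.999). Its values ran from 4.79 in rat 6, which shared the highest plus maze value of 18.7 with rat 2, through a median of 5.52 to 6.30 in rat 9, which shared the lowest value of 0 with rat 3. Its r was -0.495 (exact permutation p = 0.181) and a Spearman's rho of -0.496 (exact p = 0.178), with -0.426 in the 7 rats and -0.537 without rats 2 and 6. The median slope of the 12 was -0.061, against 0.011 over all tested, and 8 of 12 were negative, as were 41.8% of all. Without rat 2 the median was -0.17 and 3 of 12 had an unadjusted p under 0.05, against 2.07% of all, and without rat 6 the median was 0.028. It was 0.021 with the other 3 behaviours as covariates and -0.051 in the 7 rats. The slope of Mobp probe set 1370500_a_at was -0.47 without rat 2, -0.17 without rat 6 and -0.17 in the 7 rats.

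**Figure D5:**
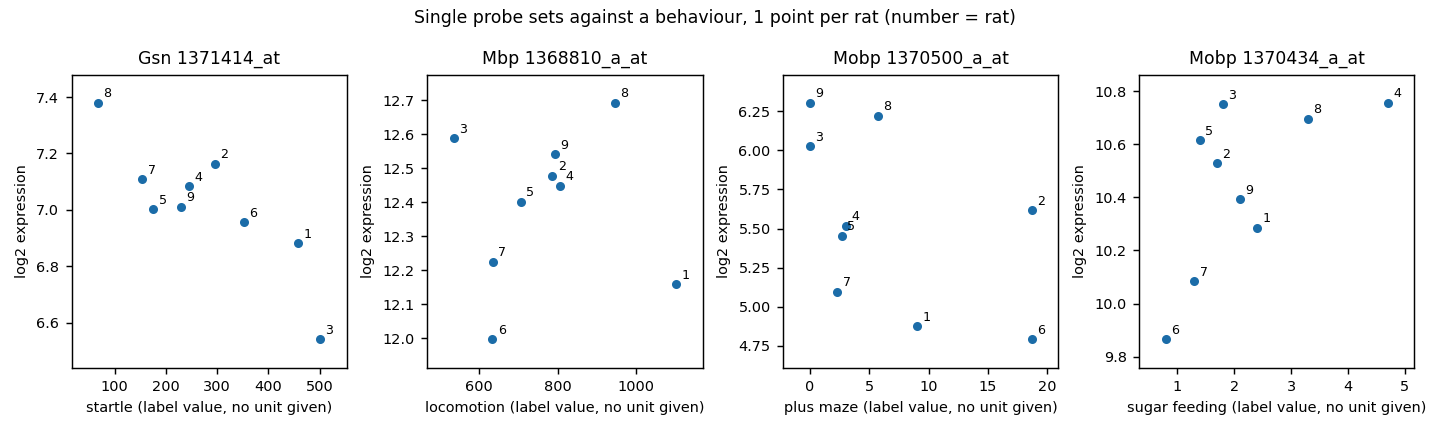
Log2 expression of 4 single probe sets against 1 behaviour each, with 1 numbered point for each of the 9 rats. Gsn has rat 8 at its upper left and rat 3 at its lower right along startle, Mbp has rats 1 and 3 away from the other 7 along locomotion, and the Mobp probe sets drawn, 1370500_a_at and 1370434_a_at, have rat 6 lowest.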

How the data were processed

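The authors deposited 1 log2 value for each probe set and rat. The submitters' processing notes name GCRMA and R 2.6.2, with no settings. GCRMA corrects background by probe sequence and normalizes between arrays, so low values are compressed and arrays share a scale. Genes were named through the platform annotation, where 312 probe sets have several symbols and were given none.

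After 57 control probe sets and the lowest 40% by mean were left out, 9520 probe sets were fitted with limma 3.58.1 (R 4.3.3; lmFit, eBayes) as a slope per SD of each behaviour, two-sided, with Benjamini-Hochberg adjustment over all 9520. The labels name no batch, and p-values measure the spread between these rats, arrays included. Each r and rho given with an exact p was set against every pairing of the values (362880 for 9 rats, 5040 for 7), two-sided. The other correlations, among them those with the mean z score, are descriptions without a test. Correlations were computed in Python 3.11.15 with scipy 1.17.1, numpy 2.4.6, pandas 2.3.3 and, for figures, matplotlib 3.10.9. The fit was tested on simulated data. The number of arrays limits precision.

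The 9 genes and the gene lists were chosen with earlier results of these data known. Named genes are all 9 genes, the 10 most and 5 least like their mean, up to 4 highest and 2 lowest of a list, and those of smallest limma p for a behaviour, with exceptions stated. The mean z score used the 8 genes kept by the filter. Alternatives were other filters, quantile normalization, moderation with a trend, ranks, covariates, a term for rats 8 and 9, and subsets of rats. Adding Ugt8 to the mean was chosen after seeing the data.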

Additional observations from a re-analysis of the deposited data

Results flagged for a closer look

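Cldn11 probe set 1369609_at, below the low-value filter, had 1 rat far from the others. Rat 8 had 2.95, against 1.94 to 2.08 in the other 8 rats, and its gap to the nearest rat was 0.865 of the whole range, above Dixon's critical value for 9 samples. The other Cldn11 probe set, 1376711_at, had 9.38 in rat 8, its median. Among 15 probe sets examined this was the only one, and chance marks about 1 in 20.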

How the results depend on the processing

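No paired analysis was possible because the labels define 1 group. In limma 0 of the myelin probe sets passed an adjusted p of 0.05 for any behaviour under every alternative run, and over all tested probe sets only startle without a filter differed, with 1 call. The count of myelin probe sets at an unadjusted p under 0.05 for startle was 2 without a filter and 0 once the 2 most distant rats were dropped. For locomotion it was 8 without the 2 farthest rats, with a median slope of 0.36. For sugar feeding it was 1 with the other 3 behaviours as covariates and 0 without the 2 farthest rats, where the slope of Mobp (1368263_a_at) was -0.11, the opposite sign. Leaving out each rat in turn, these counts ran from 0 to 4 for sugar feeding, 1 to 3 for startle and 0 to 3 both for plus maze and for locomotion. The median slopes ran from 0.083 to 0.25 for sugar feeding, from -0.16 to 0.011 for startle, from -0.17 to 0.028 for plus maze and from -0.017 to 0.19 for locomotion. The number of pairs at r = 0.7 was 10 without rats 8 and 9, where 6.95% of all pairs were. Leaving out 1 rat, it ran from 5 without rat 6 or 8 to 11 without rat 3, with no share over all pairs computed. The r of Cldn11 with the other genes was 0.844 without rats 8 and 9, and that of Gsn ran from -0.065 without rat 8 to 0.758 without rat 3. The cause was not tested. Of 213 recomputed slopes for each behaviour, 5 changed sign for sugar feeding, 21 for startle, 28 for plus maze and 34 for locomotion. Signals of Ugt8 and of the second Cldn11 probe set lie near background, which limits what their values can show.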
